A study of Mus musculus with 8 samples.

Results

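Messenger RNA of 9 interferon-stimulated genes, Ifit1, Ifit2, Ifit3, Isg15, Irf7, Oasl2, Rsad2, Usp18 and Bst2, was followed in the hearts of wild-type and fat-1 mice with and without pressure overload. The genes were chosen by name, and all 9 were found among the 25929 genes of the table. Each of them was at 1 FPKM (fragments scaled to transcript length and to the mapped fragments of the library) or more in at least 2 libraries, as were 14442 genes in all, and these are the genes tested. The 8 libraries were 2 each of WT-Sham (C57BL/6, open chest without constriction), WT-TAC (C57BL/6, transverse aortic constriction), Fat1-Sham (fat-1 transgenic, open chest without constriction) and Fat1-TAC (fat-1 transgenic, transverse aortic constriction). Fat-1 mice carry fat-1, a desaturase gene of Caenorhabditis elegans whose product turns n-6 into n-3 polyunsaturated fatty acids, and WT and fat-1 mice were littermates 3 months old when surgery was performed. The promoter that drives the transgene is not given in the sources used here, and the table lists mouse genes, so the transgene itself was not measured. The labels give ventricular tissue, the methods whole hearts. The labels describe the 2 samples of a group as independent, without naming the animals, so the spread between them may in part be technical.

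Interferons are secreted proteins that cells release after sensing foreign or misplaced nucleic acid. Type I interferons bind the receptor chains Ifnar1 and Ifnar2, and the signal reaches a complex that holds Stat2 and Irf9 and binds a DNA motif called the interferon-stimulated response element. Genes with this motif encode antiviral effectors and also brakes on the same pathway, and in the heart they are known to be switched on after viral infection and after injury. Interferon gamma has its own receptor and acts on another motif, the gamma-activated site.

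In the GENCODE M21 annotation of build GRCm38, 3 of the genes lie together on chromosome 19, Ifit2 at chr19:34550694-34576419, Ifit3 at chr19:34583531-34588731 and Ifit1 at chr19:34640871-34650009, all on the plus strand. The others lie apart, Isg15 at chr4:156199424-156200818, Oasl2 at chr5:114896936-114912234, Usp18 at chr6:121245906-121270917, Irf7 at chr7:141262706-141266481, Bst2 at chr8:71534255-71537456 and Rsad2 at chr12:26442746-26456452.

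The promoters show which of the genes carry the response element in the letters next to their starts. RefSeq promoter windows of build GRCm38.p6, from 250 bases before to 50 bases after each start, were found for 8 of the 9 genes, with 2 windows for Ifit2. No window was found for Usp18. The response element core was searched as GAAA, any 2 bases, GAAA on both strands, and the gamma-activated site as TTC, any 3 bases, GAA, which is its own reverse complement. The core was present in 5 of the 8 genes, Ifit1, Ifit3, Isg15, Rsad2 and Bst2, and in 3.44% of all 32851 windows. The gamma-activated site was present in 2 of the 8, Ifit2 and Bst2, and in 8.30% of all windows. The stretch from 160 to 21 bases before the start is printed 5′ to 3′ on the strand of the gene for the 5 genes with a core, because the spacing and number of cores differ among them, and capitals mark the cores.
Ifit1, chr19:34640729-34640868, plus strand: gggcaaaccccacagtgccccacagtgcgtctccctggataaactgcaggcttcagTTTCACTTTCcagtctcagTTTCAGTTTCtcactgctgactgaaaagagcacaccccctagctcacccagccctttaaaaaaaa
Ifit3, chr19:34583369-34583508, plus strand: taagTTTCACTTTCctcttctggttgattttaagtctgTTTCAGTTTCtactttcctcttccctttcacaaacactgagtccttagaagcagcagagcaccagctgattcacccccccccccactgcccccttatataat
Isg15, chr4:156200839-156200978, minus strand: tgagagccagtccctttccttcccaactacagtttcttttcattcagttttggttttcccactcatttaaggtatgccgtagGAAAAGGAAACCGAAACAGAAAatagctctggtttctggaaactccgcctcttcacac
Rsad2, chr12:26456473-26456612, minus strand: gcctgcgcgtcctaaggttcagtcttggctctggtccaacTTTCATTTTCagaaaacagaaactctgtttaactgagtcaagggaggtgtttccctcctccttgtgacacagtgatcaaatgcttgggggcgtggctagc
Bst2, chr8:71537493-71537632, minus strand: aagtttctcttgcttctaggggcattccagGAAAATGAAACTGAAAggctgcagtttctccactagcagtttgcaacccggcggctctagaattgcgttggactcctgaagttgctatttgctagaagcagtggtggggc
Ifit1 and Ifit3, which lie in 1 gene cluster on chromosome 19, each held 2 separate cores on the reverse strand, starting 104 and 85 bases before the start in Ifit1 and 156 and 122 bases in Ifit3. In Isg15, 3 cores overlapped one another between 78 and 57 bases before the start. Bst2 had 2 overlapping cores between 130 and 115 bases before the start, and the gamma-activated site, between 136 and 128 bases, overlapped the first of them by 3 bases. Rsad2 had a single core, between 120 and 111 bases. In Ifit2 the gamma-activated site lay between 241 and 233 bases before the start. Neither motif was found in the windows of Irf7 and Oasl2. A match describes letters in a window and is not a site of binding.

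**Figure D1:**
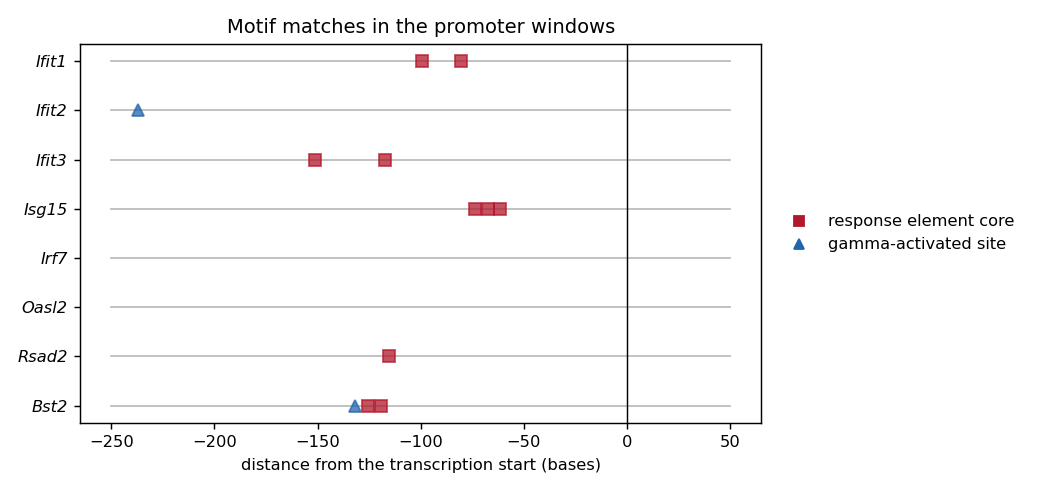
Position of motif matches, as the distance in bases from the transcription start, in the windows of 8 genes (the 2 windows of Ifit2 share a line). Red squares are response element cores and blue triangles gamma-activated sites, each at its midpoint. The cores of 5 genes lie between 156 and 57 bases before the start.

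The libraries held between 14163994 and 21218331 fragments, recovered from the FPKM values, and the 9 genes between 45 fragments (Usp18 in Fat1-Sham1) and 838 (Bst2 in WT-TAC1) per library. At 45 fragments the exact 95% Poisson interval was 32.8 to 60.2 fragments, which covers counting error only. Cardiomyocyte markers were high in every library (Myh6, the main adult myosin heavy chain of the mouse heart, 7406 to 17694 FPKM). WT-TAC1 stood apart from the rest. The summed FPKM of 8 T cell markers was 2397 there and 1.83 to 7.73 in the other 7 libraries, and that of 7 markers of immature thymocytes was 1459 against 2.67 to 23.6. The sum of 10 cardiomyocyte markers was 27864 in WT-TAC1 and 50911 to 67254 elsewhere. Markers of airway epithelium summed to 1641 in WT-TAC1, 3865 in WT-TAC2 and 51.5 in Fat1-Sham1, and to 2.505 to 6.56 in the other 5 libraries. Those of B and plasma cells summed to 92.6 in WT-TAC1, 47.0 in WT-TAC2 and 38.8 in Fat1-TAC2, and to 2.65 to 5.08 in the remaining libraries. Of all genes tested, 58.1% had their highest value in WT-TAC1, and so did 8 of the 9 interferon-stimulated genes. The main results that rest on WT-TAC are therefore also given without WT-TAC1, which leaves WT-TAC2 with its airway markers.

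Across the 8 libraries, Bst2 had the highest mean level (49.9 ± 9.05 FPKM, SD, n = 8), which was above the mean of 87.5% of the genes tested, and its lowest value (42.0 FPKM) was above the highest of any other member (30.4 FPKM, Oasl2). Bst2 encodes tetherin, a membrane protein that holds budding virus particles on the cell. Oasl2 followed at 15.3 ± 6.52 FPKM and Irf7 at 11.6 ± 3.86 FPKM, and Oasl2 was above Irf7 in 7 of 8 libraries. Ifit2 (10.3 ± 2.36 FPKM), Ifit3 (9.37 ± 2.66 FPKM), Isg15 (9.07 ± 2.81 FPKM) and Rsad2 (8.34 ± 1.93 FPKM) had means between 8.34 and 10.3 FPKM. These SDs cover all 4 groups. Their order changed between libraries, Ifit3 being above Isg15 in 4 of 8 and Isg15 above Rsad2 in 3 of 8. Usp18 (6.53 ± 4.71 FPKM) was above Ifit1 (4.69 ± 1.56 FPKM), the lowest of the 9, in all 8 libraries. FPKM is scaled per length, so these levels can be set side by side. In whole tissue, fewer cells of a type and less RNA per cell cannot be told apart.

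**Figure D2:**
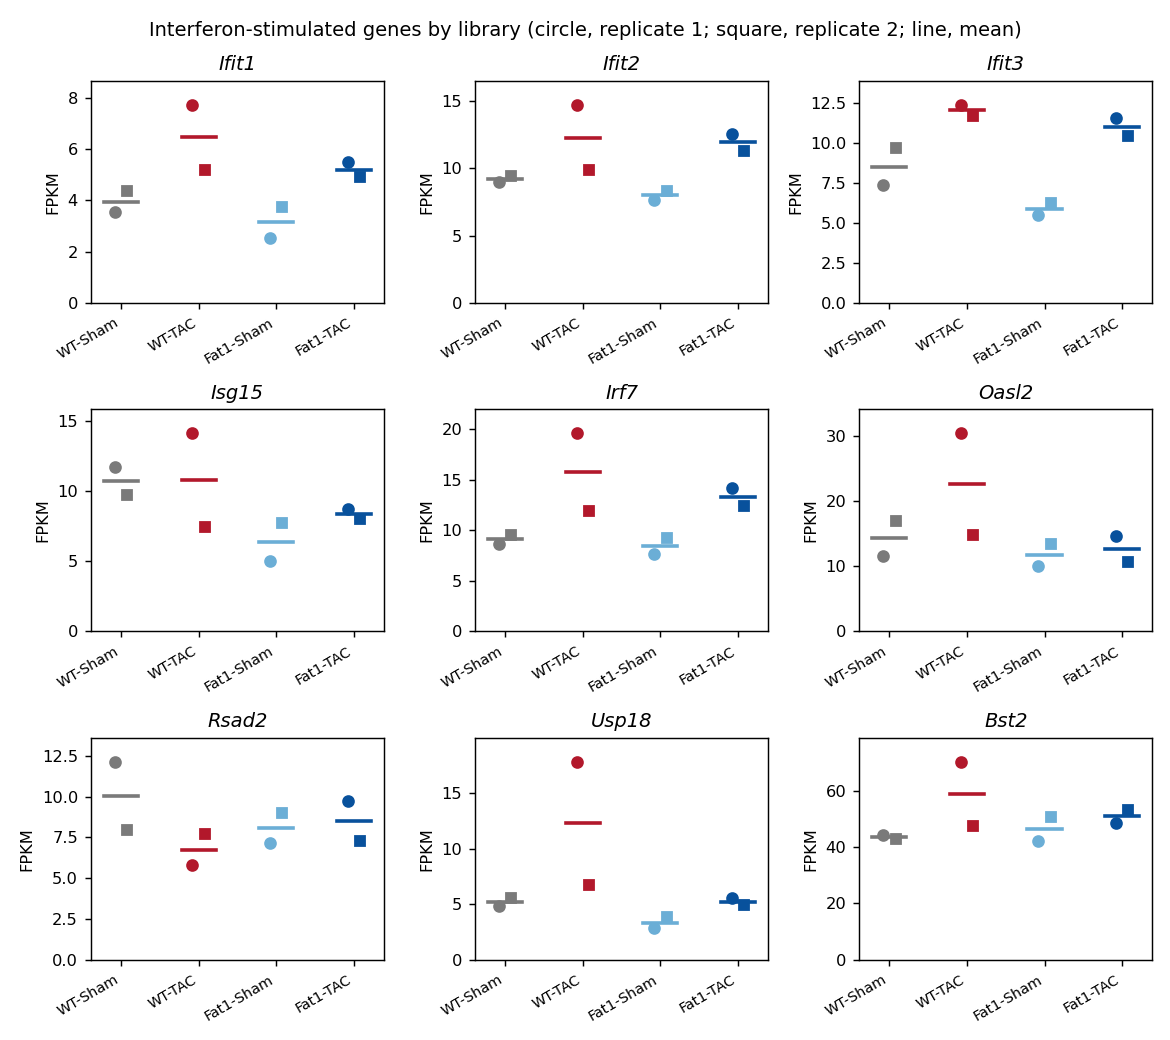
FPKM (y axis, from 0) of each gene in the 4 groups (x axis); circles are replicate 1, squares replicate 2 and lines the mean of 2 libraries. Circles of WT-TAC stand above all other points for 8 genes, Rsad2 being the exception with its lowest value there.

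The first question was whether the genes moved with pressure overload. Ifit1, Ifit2, Ifit3 and Irf7 were above all 4 sham libraries in all 4 TAC libraries. By this rule of no overlap, 4 of the 9 genes lay higher in TAC, against 7.82% of the genes tested. Leaving out a library cannot undo a separation, and without WT-TAC1 the same 4 genes were separated, against 9.76% of genes. The separation held for Ifit1 and Irf7 after median-of-ratios scaling (4.62% of genes) and for Irf7 alone after quantile normalization (3.82% of genes). The exact two-sided permutation test over the 8 libraries gave p = 0.0286 for each of the 4 genes. This is the smallest p that 4 against 4 can give, in a family of 18 such tests. Every gene without overlap reaches it, so the p restates the separation and adds no support to it. The splits also took no account of genotype. After median-of-ratios scaling the permutation p was 0.0286 for Ifit1 and Irf7, 0.0857 for Ifit3 and 0.229 for Ifit2. In the fit across all genes with limma, no member passed the call of an adjusted p under 0.1 and a 1.5-fold change for the TAC effect averaged over genotypes, and 0% of all genes did. The adjusted p of the members was 0.187 to 0.662, and 5 of the 9 had an unadjusted p under 0.05, as did 2279 of the 14442 genes (15.8%). The median change of the 9 was 0.44 on the log2(FPKM + 1) scale, and that of all genes 0.21.

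Irf7 encodes the transcription factor that amplifies type I interferon production. It measured 8.65 and 9.57 FPKM in WT-Sham, 19.6 and 11.9 in WT-TAC, 7.70 and 9.23 in Fat1-Sham, and 14.2 and 12.4 in Fat1-TAC. The TAC libraries were thus all above the sham libraries in both genotypes, by a log2 fold change of 0.64 ± 0.179 (SE, 1.56-fold, adjusted p = 0.260 by limma) averaged over genotypes. The difference was 0.69 ± 0.253 within WT and 0.60 ± 0.253 within fat-1 hearts, and without WT-TAC1 it was 0.35 within WT and 0.47 averaged over genotypes. Irf7 was the gene whose separation remained under both other scalings.

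Ifit1, Ifit2 and Ifit3 encode proteins with tetratricopeptide repeats that bind viral RNA or hinder its translation. Ifit3 measured 7.40 and 9.67 FPKM in WT-Sham, 12.4 and 11.7 in WT-TAC, 5.48 and 6.24 in Fat1-Sham, and 11.6 and 10.5 in Fat1-TAC. Its averaged TAC effect of 0.64 ± 0.140 (1.55-fold, adjusted p = 0.187) had the smallest p of the 9 genes. The 2 WT-TAC libraries differed little for Ifit3, with 11.7 FPKM in WT-TAC2. The T cell marker sum of that library was 7.73 FPKM and its airway marker sum 3865. Ifit3 has a near-identical neighbour, Ifit3b, whose fragments may have been split with it, and Ifit3b measured 2.22 and 2.99 FPKM in WT-Sham, 2.45 and 2.98 in WT-TAC, 1.57 and 2.25 in Fat1-Sham, and 2.97 and 3.94 in Fat1-TAC.

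Ifit1 measured 3.54 and 4.37 FPKM in WT-Sham, 7.73 and 5.20 in WT-TAC, 2.54 and 3.75 in Fat1-Sham, and 5.48 and 4.90 in Fat1-TAC. Its averaged TAC effect was 0.58 ± 0.187 (adjusted p = 0.276). Ifit2 measured 8.97 and 9.39 FPKM in WT-Sham, 14.7 and 9.83 in WT-TAC, 7.67 and 8.31 in Fat1-Sham, and 12.5 and 11.3 in Fat1-TAC. The WT-TAC2 value of Ifit2 was only just above the WT-Sham values, and its averaged TAC effect was 0.44 ± 0.155 (1.36-fold, adjusted p = 0.296). The averaged effects of these 4 genes were smaller but still positive after median-of-ratios scaling (Ifit1 0.37, Ifit2 0.20, Ifit3 0.40, Irf7 0.40) and quantile normalization (0.26, 0.16, 0.35 and 0.38 in the same order). Without WT-TAC1 they were 0.46 for Ifit1, 0.31 for Ifit2 and 0.62 for Ifit3.

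Usp18 encodes the protease that removes Isg15 from proteins and also damps signalling at the receptor. It measured 4.87 and 5.59 FPKM in WT-Sham, 17.8 and 6.73 in WT-TAC, 2.86 and 3.87 in Fat1-Sham, and 5.56 and 4.92 in Fat1-TAC. Fat1-TAC and WT-Sham overlapped, so the 8 libraries were not separated by surgery, although TAC was above sham within each genotype. The averaged TAC effect of 0.74 ± 0.282 (1.67-fold, adjusted p = 0.303) was the largest of the 9 genes and rested in part on WT-TAC1, since it was 0.42 without that library.

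Isg15 is a ubiquitin-like protein that is joined to other proteins in stimulated cells. It measured 11.8 and 9.73 FPKM in WT-Sham, 14.1 and 7.44 in WT-TAC, 5.06 and 7.71 in Fat1-Sham, and 8.71 and 8.02 in Fat1-TAC. The WT-TAC libraries lay on either side of the WT-Sham libraries, and the averaged TAC effect of 0.16 ± 0.226 (adjusted p = 0.662) turned to -0.08 after median-of-ratios scaling and to -0.12 after quantile normalization.

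Oasl2 belongs to the oligoadenylate synthetase-like proteins, relatives of the enzymes that activate RNase L. It measured 11.6 and 17.0 FPKM in WT-Sham, 30.4 and 14.9 in WT-TAC, 10.1 and 13.5 in Fat1-Sham, and 14.6 and 10.7 in Fat1-TAC. Sham and TAC overlapped in both genotypes, with a single high value in WT-TAC1. Bst2 measured 44.3 and 42.8 FPKM in WT-Sham, 70.2 and 47.5 in WT-TAC, 42.0 and 50.8 in Fat1-Sham, and 48.6 and 53.1 in Fat1-TAC. Outside WT-TAC1 its values spanned only 42.0 to 53.1 FPKM.

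Rsad2 encodes viperin, an enzyme that makes a chain-terminating nucleotide against viral polymerases. It measured 12.1 and 7.93 FPKM in WT-Sham, 5.80 and 7.71 in WT-TAC, 7.15 and 9.004 in Fat1-Sham, and 9.71 and 7.30 in Fat1-TAC. On the FPKM scale it was the single member with lower values in both WT-TAC libraries than in both WT-Sham libraries. The log2 fold change was -0.49 ± 0.273 (adjusted p = 0.237 by limma), and -0.31 without WT-TAC1, which held the lowest value of Rsad2. After median-of-ratios scaling 2 members, Rsad2 and Isg15, were lower in both WT-TAC libraries, and after quantile normalization 3 members were. The share of all genes lower in this way was not computed. Cmpk2, a nucleotide kinase gene that lies beside Rsad2 on chromosome 12, also had a high first sham value, at 9.45 and 6.49 FPKM in WT-Sham, 5.99 and 7.18 in WT-TAC, 4.54 and 8.04 in Fat1-Sham, and 6.29 and 6.51 in Fat1-TAC. Over the 8 libraries, which share their depth and scaling between the genes, Rsad2 and Cmpk2 had r = 0.70 as a description.

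**Figure D3:**
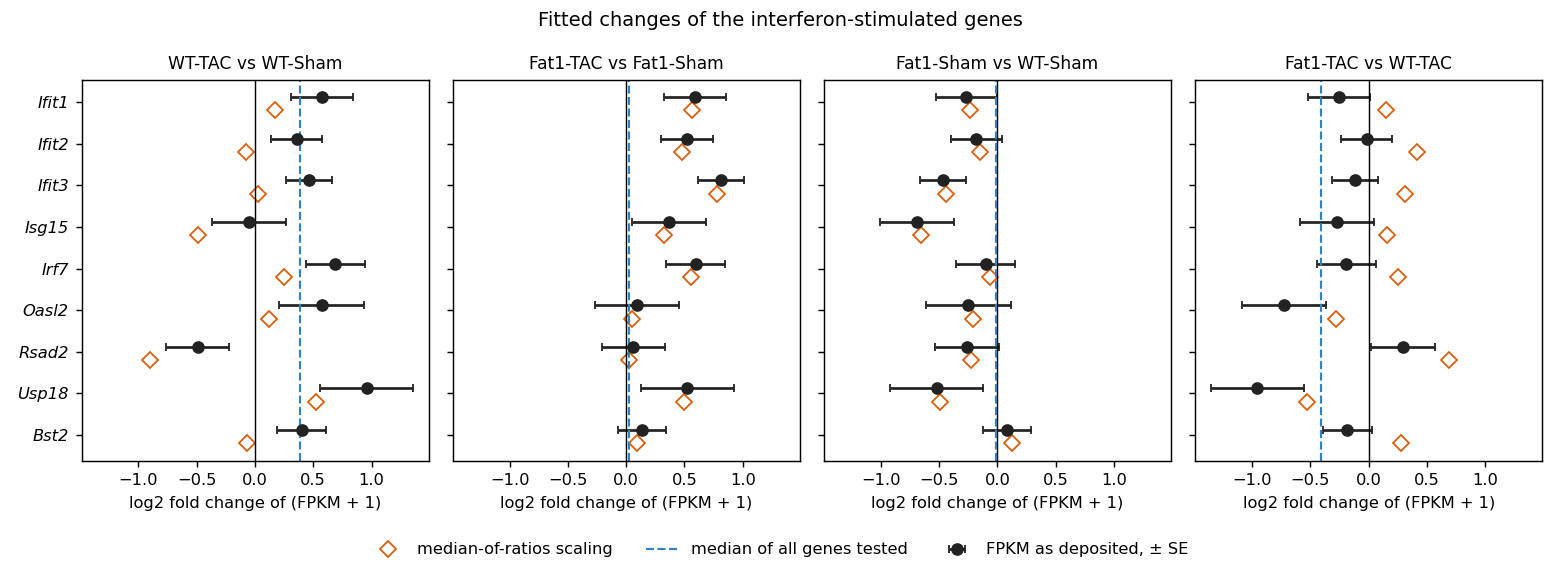
Log2 fold change of (FPKM + 1) on the x axis for each gene in 4 comparisons. Black points are the limma estimates with SE bars, orange diamonds the estimates after median-of-ratios scaling, and blue dashed lines the median of all genes tested. In the fat-1 comparison of TAC with sham all 9 points lie right of 0 under both scalings, whereas in both comparisons with WT-TAC the diamonds are shifted and 6 genes change sign between Fat1-TAC and WT-TAC.

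Within wild-type hearts, 7 of the 9 genes had a positive log2 fold change in WT-TAC against WT-Sham, but the whole table was shifted the same way. The median change of all genes tested was 0.39 on the log2 scale and that of the 9 genes was 0.46. Without WT-TAC1 these medians were 0.21 and 0.12, and 4 of the 9 genes lay above that of all genes. Relative to the shift of all genes, 6 of the 9 lay above it, led by Usp18 (0.57 above) and Irf7 (0.30 above), and 3 below it, with Rsad2 (-0.88) and Isg15 (-0.44) farthest. After median-of-ratios scaling the median of all genes was -0.02 and that of the 9 genes 0.03, with Ifit2, Bst2, Isg15 and Rsad2 negative. After quantile normalization Ifit2, Ifit3, Isg15 and Rsad2 were negative, so 5 of the 9 were positive under each scaling. Limma called 0 of the 9 genes, against 0.935% of all genes, with adjusted p between 0.176 and 0.918. Irf7 and Usp18 had an unadjusted p under 0.05 in limma, as had 3973 genes (27.5%). The rule of no overlap was met by 6 of the 9 genes, Ifit1, Ifit2, Ifit3, Irf7, Usp18 and Bst2, and by 52.5% of all genes. It was met by 3 of the 9 after median-of-ratios scaling (24.2% of all genes) and by 1 after quantile normalization (19.2%). The same 6 met it without WT-TAC1 (64.1% of all genes), where leaving out a library cannot undo a separation. With 2 libraries against 2, an exact test cannot go below p = 0.333. Where WT-TAC1 alone stood for WT-TAC, the members' log2 fold changes ran from -0.67 (Rsad2) to 1.60 (Usp18), with a median of all genes of 0.54. Where WT-TAC2 alone stood for it, they ran from -0.47 (Isg15) to 0.42 (Ifit3), with a median of all genes of 0.21. In both fits the lone library was assumed to vary like the other groups. The part of the T cell and thymocyte markers of WT-TAC1, and of the airway and B and plasma cell markers of both WT-TAC libraries, in the members' values was not tested.

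Within fat-1 hearts, whose 4 libraries held T cell marker sums of 1.83 to 3.43 FPKM, all 9 genes had a higher mean in Fat1-TAC than in Fat1-Sham. The signs were positive for all 9 under median-of-ratios scaling and quantile normalization too, and all 9 were above the median of all genes, which was 0.03. The median change of the 9 genes was 0.52. Ifit3 differed most, by 0.81 ± 0.198 (1.75-fold), followed by Irf7 (0.60 ± 0.253, 1.51-fold), Ifit1 (0.59 ± 0.265, 1.51-fold), Usp18 (0.52 ± 0.399, 1.44-fold) and Ifit2 (0.52 ± 0.220, 1.43-fold). The differences of Oasl2 (0.09), Rsad2 (0.06) and Bst2 (0.13) were smaller than their SE of 0.362, 0.273 and 0.208. Both TAC libraries were above both sham libraries for 6 of the 9 genes, Ifit1, Ifit2, Ifit3, Isg15, Irf7 and Usp18, against 26.8% of all genes, and for 5 of these, without Isg15, after median-of-ratios scaling (22.5% of all genes) and quantile normalization (22.9%). Limma called 0 of the 9 genes and 0.00692% of all genes, which is 1 gene. The adjusted p was 1 for each member, and 3 of the 9 had an unadjusted p under 0.05 (Ifit3, 0.00438, Ifit2, 0.0489, and Irf7, 0.0499) against 373 genes (2.58%). Limma-voom on the recovered fragments called 0 members too. In these 4 libraries the macrophage marker sum was 225 and 235 FPKM in Fat1-Sham and 225 and 232 in Fat1-TAC, B and plasma cell markers summed to 38.8 FPKM in Fat1-TAC2 and to 2.65 to 5.08 in the other 3, and their part in the result was not tested.

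The second question was whether the transgene itself moved the genes. In sham hearts 8 of the 9 had a lower mean in Fat1-Sham than in WT-Sham, with a median of -0.26 against -0.02 for all genes, and the same 8 were lower under both other scalings, Bst2 (0.08) being the exception. Isg15 differed most, by -0.69 ± 0.319 (0.62-fold, unadjusted p = 0.0673 by limma), followed by Usp18 (-0.52 ± 0.399) and Ifit3 (-0.47 ± 0.198, unadjusted p = 0.0493). Both Fat1-Sham libraries were below both WT-Sham libraries for 4 of the 9, Ifit2, Ifit3, Isg15 and Usp18, against 16.5% of all genes. Limma called 0 of the 9 genes and 0% of all genes in this comparison, with adjusted p = 1 for each member and 1 member and 180 genes (1.25%) at an unadjusted p under 0.05. Markers of other cells also differed between the sham groups. Macrophage markers were lower in Fat1-Sham for 10 of 10 (median -0.34, summed FPKM 225 and 235 against 270 and 335 in WT-Sham), fibroblast markers for 7 of 7 (median -0.45, 621 and 561 against 639 and 1036) and neutrophil markers for the 3 of 7 tested (median -1.47, all 7 summing to 8.74 and 8.79 against 19.6 and 39.5). An unadjusted p under 0.05 was found for 1 macrophage, 2 fibroblast and 3 neutrophil markers, 0 were called, and their part in the members' values was not tested. For 4 members the sign turned when 1 library was left out, namely Irf7, Oasl2, Rsad2 and Bst2.

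In TAC hearts 8 of the 9 genes had a lower mean in Fat1-TAC than in WT-TAC on the FPKM scale, where the median of all genes was -0.40, and the direction turned for Ifit1, Ifit2, Ifit3, Isg15, Irf7 and Bst2 under both other scalings. Only Usp18 (-0.95 ± 0.399, adjusted p = 0.169) and Oasl2 (-0.72 ± 0.362, adjusted p = 0.195) were below the shift of all genes and kept a negative sign under all scalings. Rsad2 was higher (0.29 ± 0.273) under every scaling. Limma called 0 of the 9 genes and 1.43% of all genes, with 1 member and 4253 genes (29.4%) at an unadjusted p under 0.05. Both Fat1-TAC libraries were below both WT-TAC libraries for Ifit3, Oasl2 and Usp18, 3 of the 9, against 57.1% of all genes. The same 3 were separated without WT-TAC1, against 66.9%, where leaving out a library cannot undo a separation. After median-of-ratios scaling this held for 0 members, against 26% of all genes, and after quantile normalization for 0 members, against 20.5%. In the other direction, 4 members lay without overlap above WT-TAC after median-of-ratios scaling and 5 after quantile normalization. The share of all genes above WT-TAC in this way was not computed. Without WT-TAC1, the change of Usp18 was -0.31, that of Oasl2 -0.23, and 5 of the 9 genes had a positive sign. With WT-TAC1 as the single WT-TAC library, 3 members and 7837 genes were called.

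Averaged over both surgeries, Usp18 was lower in fat-1 than in WT hearts by -0.74 ± 0.282 (0.60-fold, adjusted p = 0.318), and by -0.42 without WT-TAC1. No member was called by limma, against 0.0415% of all genes, with 1 member and 2150 genes (14.9%) at an unadjusted p under 0.05, and no member had all 4 fat-1 libraries below all 4 WT libraries, against 4.56% of all genes. The exact permutation p of the 9 genes for genotype lay between 0.114 and 1. For the interaction of genotype and surgery limma called 0 of the 9 genes, against 0.0692% of all genes, and 0 of the 9 had an unadjusted p under 0.05, against 1049 genes (7.26%). The largest interaction was that of Rsad2, at 0.55 ± 0.386 (adjusted p = 0.498), and 0.38 without WT-TAC1. The interaction was positive for 5 of the 9 genes, with a median of 0.01 against -0.37 for all genes. It was positive for 9 without WT-TAC1 (median 0.26, all genes -0.19), for 7 after median-of-ratios scaling (0.39, all genes 0.002) and for 8 after quantile normalization (0.48, all genes 0.05). The effect of TAC in fat-1 hearts was thus not shown to differ from that in WT hearts for any member. The comparisons share libraries, so their values are not independent of one another.

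Apart from Rsad2, the members varied together over the 8 libraries, and less so without WT-TAC1. Over the 8 libraries, the 28 pairs without Rsad2 had r between 0.53 and 0.97, with a median of 0.80, and the closest pair was Ifit2 with Irf7 (0.97). Leaving out WT-TAC1 lowered the median of these pairs to 0.59 and their range to -0.05 to 0.95. Ifit1, Ifit3 and Irf7 kept r of 0.89 to 0.95 with one another over these 7 libraries. Rsad2 had r between -0.55 and 0.06 with the other 8 members over 8 libraries, and between -0.07 and 0.74 over 7, the highest being with Isg15. These values describe libraries that share depth and scaling. The standardised profile averaged over the 9 genes was 1.43 in WT-TAC1, 0.08 in WT-TAC2, -0.17 in WT-Sham1, -0.11 in WT-Sham2, -1.24 and -0.44 in the Fat1-Sham pair, and 0.43 and 0.01 in the Fat1-TAC pair.

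**Figure D4:**
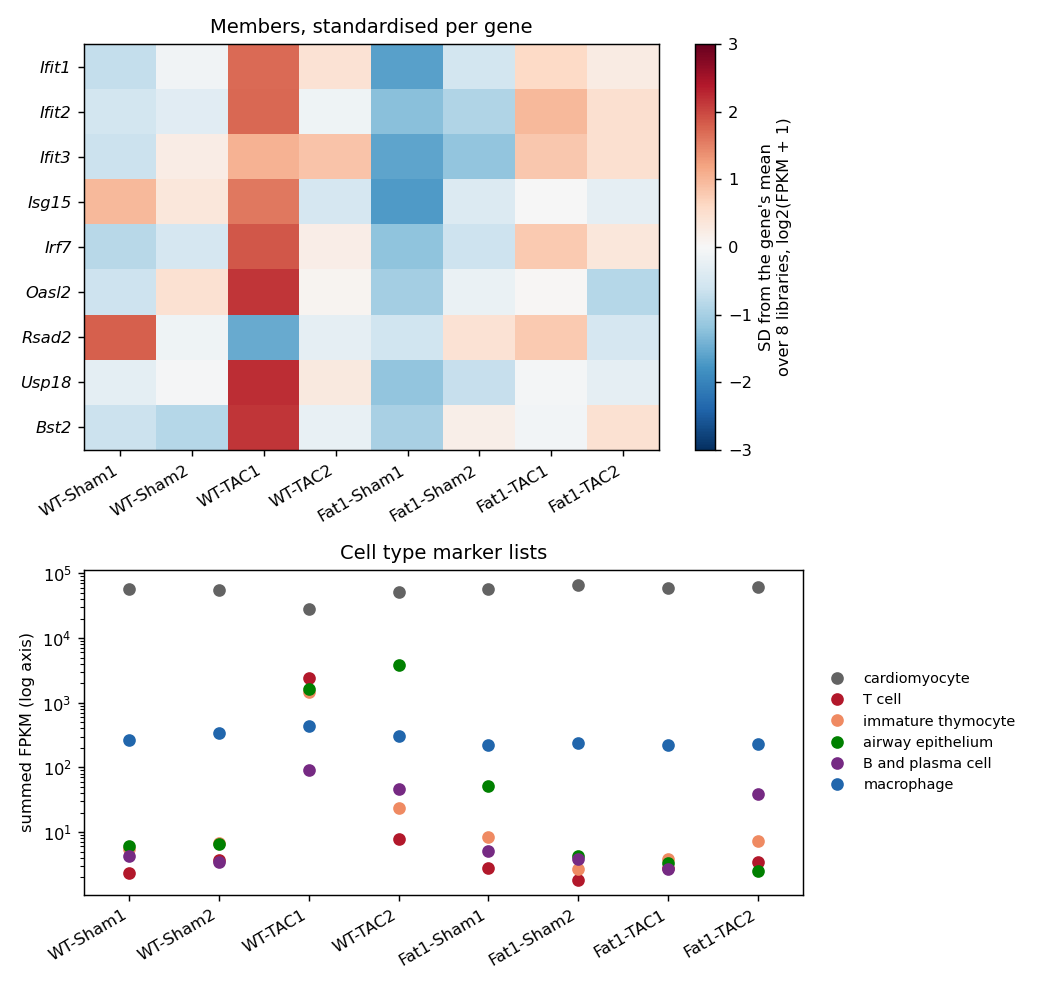
Top, each gene's log2(FPKM + 1) in each library in SD from its mean over 8 libraries. Bottom, summed FPKM of 6 cell type marker lists on a log axis, by library. WT-TAC1 has the highest value of 8 genes and the lowest of Rsad2, and the same library has a T cell marker sum of 2397 FPKM and the lowest cardiomyocyte sum.

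The genes outside the 9 whose profile was most like this average over the 8 libraries were Bax, Rps27l, Shkbp1, Lsm5, Rpl7a, Gm4951, Ssbp1 and 4933434E20Rik, with r of 0.96 to 0.98, and of 0.91 to 0.97 without WT-TAC1. None of the 8 was on the pathway lists used here, which does not show that they lie outside the interferon response. In all, 120 of 14411 other genes had r over 0.9.

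The remaining parts of the pathway were read from lists of genes named by role. Of 10 interferon genes on the ligand list, 2 were in the table, Ifng and Ifnk, and neither passed the filter on low values. Ifng had 1 fragment in each of 3 libraries and 0 in 5, and Ifnk 1 fragment in each of 2 libraries, so no difference was detectable at this depth. Ifnb1 was not analysed here.

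Receptors and signalling genes were expressed in every library. Ifnar1 measured 11.0 and 12.7 FPKM in WT-Sham, 35.3 and 14.9 in WT-TAC, 12.3 and 10.2 in Fat1-Sham, and 12.9 and 13.1 in Fat1-TAC, and Ifnar2 10.8 and 12.03, 22.4 and 16.8, 11.0 and 10.9, and 11.7 and 11.7 FPKM in the same order. Both chains were highest in WT-TAC1. Stat2, which binds the response element together with Irf9, measured 13.1 and 13.7, 33.8 and 19.4, 12.2 and 14.4, and 17.3 and 17.8 FPKM in that order, and Irf9 11.5 and 10.9, 23.2 and 11.2, 9.82 and 10.9, and 12.7 and 11.3 FPKM. In fat-1 hearts Stat2 differed between TAC and sham by 0.38 ± 0.257 and Irf9 by 0.19 ± 0.308, each with adjusted p = 1 by limma. Of the 12 receptor and signalling genes, 0 were called in either comparison of TAC with sham, and the median change was 0.74 in WT and 0.12 in fat-1 hearts.

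Among other effectors, 36 of 37 listed genes were tested and 0 were called. In fat-1 hearts 33 of the 36 were higher in TAC, with a median of 0.27 against 0.03 for all genes, and 23 of the 36 had both TAC libraries above both sham libraries, against the 26.8% of all genes given above. In WT hearts 30 of the 36 were higher in TAC, as were 79.3% of all genes, with a median of 0.42 against 0.39 for all genes. Mx1, a GTPase that blocks viral replication, was low, at 0.54 and 0.88 FPKM in WT-Sham, 2.85 and 1.47 in WT-TAC, 0.30 and 0.46 in Fat1-Sham, and 0.85 and 0.60 in Fat1-TAC. Cxcl10, a chemokine that draws T cells, measured 0.62 and 0.30 FPKM in WT-Sham, 3.82 and 1.46 in WT-TAC, 0.31 and 0.08 in Fat1-Sham, and 0.51 and 0.53 in Fat1-TAC, where 0.08 FPKM rests on 2 fragments. Both followed the order of TAC above sham in each genotype. Ifi27l2a, which encodes a small interferon-induced protein, overlapped between TAC and sham in fat-1 hearts, at 62.6 and 74.2 FPKM in Fat1-Sham and 61.8 and 111 in Fat1-TAC.

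Interferon gamma targets, 20 of 20 tested, were higher in TAC for 20 in fat-1 hearts (median 0.33) and for 18 in WT hearts (median 0.74), and 0 were called. Nucleic acid sensors, 13 tested, were higher in TAC for 12 in each genotype, with medians of 0.26 in fat-1 and 0.58 in WT hearts, and 0 were called. Brakes on the pathway, 7 tested besides Usp18, were higher in TAC for 3 in fat-1 hearts (median -0.07) and for 6 in WT hearts (median 0.69), and 0 were called. The median of the 9 genes in fat-1 hearts was above that of each of these lists, which is a description of lists chosen with earlier results known. By the rule of no overlap, Fat1-TAC was above Fat1-Sham for 14 of 20 gamma targets, 8 of 13 sensors and 0 of 7 brakes. The same held for 8 of 12 receptor and signalling genes, against 6 of the 9 members and 26.8% of all genes.

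**Figure D5:**
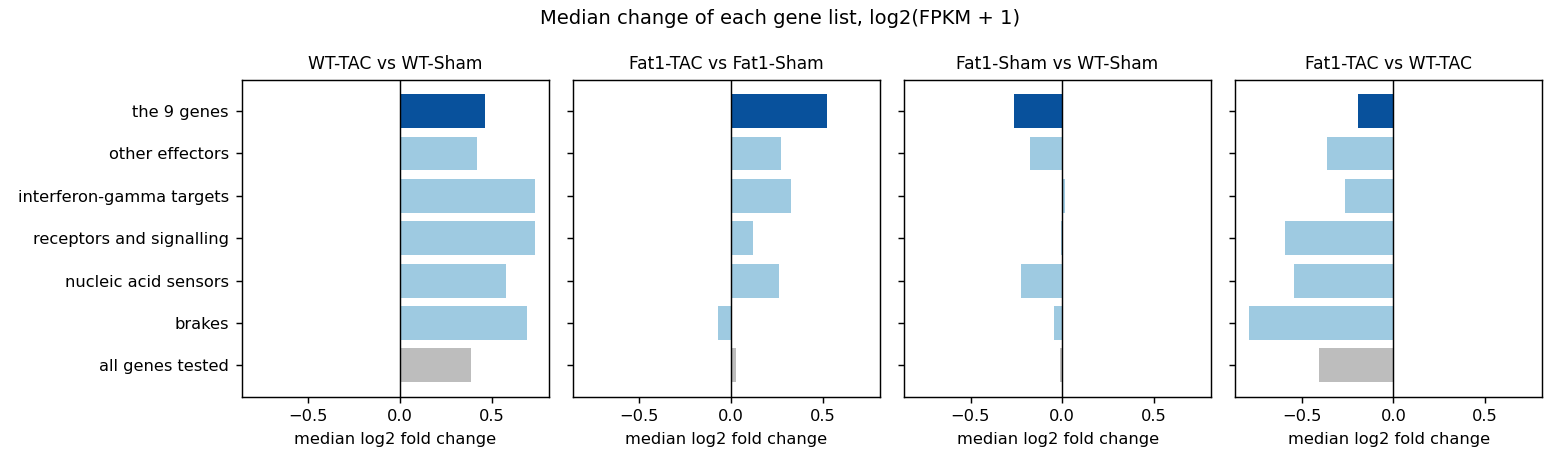
Median log2 fold change of (FPKM + 1) on the x axis for the 9 genes (dark blue), 5 other pathway lists (light blue) and all genes tested (grey), in 4 comparisons. For TAC against sham in fat-1 hearts the 9 genes have a median of 0.52 and all genes 0.03, whereas in WT hearts every list and all genes are shifted upward on the FPKM scale.

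Plasmacytoid dendritic cells are a main source of type I interferon. Of the 8 listed markers, Cox6a2 (841 to 2498 FPKM) and Tcf4 (59.9 to 77.3 FPKM) are also expressed in heart and made up the bulk of the sum, which ranged from 1116 to 2579 FPKM. The sum was 2203 and 2212 FPKM in Fat1-Sham and 2525 and 2579 in Fat1-TAC. All 4 markers tested were higher in Fat1-TAC (median log2 fold change 0.20), 0 with an unadjusted p under 0.05 by limma. Their part in the members' values was not tested. Siglech, the defining surface lectin of these cells, was at 0.21 and 0.10 FPKM in Fat1-Sham and 0.13 and 0.24 in Fat1-TAC. It was at 1.97 and 0.87 FPKM in WT-TAC against 0.18 and 0.44 in WT-Sham. In WT-TAC1 Ccr9 stood at 76.9 and Ly6d at 124 FPKM, against at most 0.18 and 2.47 elsewhere. Klk1, also on the plasmacytoid dendritic cell list, was at 1.35 FPKM in WT-TAC1. The immature thymocyte markers Rag1, Dntt and Cd8b1 were at 252, 267 and 276 FPKM in the same library. Which cells gave the Ccr9 and Ly6d values was not tested. Neutrophil markers summed to 8.74 and 8.79 FPKM in Fat1-Sham and to 5.74 and 4.34 in Fat1-TAC, and their part in the members' values was not tested.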

How the data were processed

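RNA of mouse hearts was sequenced as 8 libraries, 2 per group (WT or fat-1, sham or TAC), on an Illumina HiSeq platform after preparation with a NEBNext Ultra kit. Per the submitters' processing notes, reads were handled with HISAT2 (no version given) and builds mm10 and GRCm38. The authors deposited FPKM values for 25929 genes, with Ensembl identifiers and symbols, and 4 blank lines were removed. The counting program is not given in the sources used here. Whole fragments were recovered at 1 length per gene for 100% of genes and served for depth and 1 alternative test. After a filter that asked for 1 FPKM in 2 libraries or more, log2(FPKM + 1) was modelled in limma (version 3.58.1, R 4.3.3) with lmFit and eBayes with a trend over all 8 libraries and 4 group means, two-sided. A call needed both a 1.5-fold change in either direction and p under 0.1 after Benjamini-Hochberg adjustment. The fit was tested on simulated data. Single genes were also compared by exact two-sided permutation over libraries. Named genes were the 9 members, Stat2, Irf9, Ifnar1, Ifnar2, Ifnb1, Ifng, Mx1, Cxcl10, Ifi27l2a, called genes of the pathway lists, and the 8 genes most like the members, and 1 further gene of this rule is not reported here. Ifit3b, Cmpk2, Ifnk and the named marker genes were chosen after their values were seen. The members and lists were chosen with earlier results of these data known. Alternatives were median-of-ratios scaling, quantile normalization, no filter, 0.1 as pseudocount, a fit to the 2 groups of a comparison, a replicate block, limma-voom on fragments, and each library left out. Promoters came from RefSeq (GRCm38.p6) and gene positions from GENCODE M21 (GRCm38).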

Additional observations from a re-analysis of the deposited data

How the results depend on the processing

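Of 694 alternative values of the members' log2 fold changes, 645 kept their direction and side of the threshold, 34 changed direction and 15 came past it. For WT-TAC against WT-Sham, median-of-ratios scaling gave -0.080 for Ifit2 and -0.070 for Bst2, and quantile normalization -0.17 for Ifit2 and -0.065 for Ifit3. For Fat1-TAC against WT-TAC, median-of-ratios scaling gave 0.15 for Ifit1, 0.42 for Ifit2, 0.31 for Ifit3, 0.15 for Isg15, 0.25 for Irf7 and 0.28 for Bst2, and quantile normalization 0.29, 0.50, 0.40, 0.25, 0.30 and 0.12 in the same order. The TAC effect of Isg15 averaged over genotypes was -0.080 under the first and -0.12 under the second. These scalings removed the shift of all genes in WT-TAC1, whose size factor was 1.52. With 1 library left out, Fat1-Sham against WT-Sham ranged from -0.22 to 0.018 for Irf7, from -0.50 to 0.0086 for Oasl2, from -0.54 to 0.016 for Rsad2 and from -0.050 to 0.22 for Bst2. WT-TAC against WT-Sham ranged from -0.47 to 0.37 for Isg15, and Fat1-TAC against Fat1-Sham from -0.11 to 0.30 for Oasl2 and from -0.12 to 0.25 for Rsad2. Fat1-TAC against WT-TAC ranged from -0.28 to 0.25 for Ifit2, from -0.69 to 0.15 for Isg15, from -0.53 to 0.14 for Irf7 and from -0.46 to 0.094 for Bst2. The averaged TAC effect of Isg15 ranged from -0.053 to 0.37. The number of members called with 1 library left out ranged from 0 to 7 for WT-TAC against WT-Sham, 0 to 3 for Fat1-TAC against WT-TAC, 0 to 4 for the averaged TAC effect, 0 to 3 for the averaged fat-1 effect and 0 to 2 for the interaction, the higher count in each case without WT-TAC2, where 7408, 7837, 3752, 3769 and 6679 of all genes were called in that order. Under every other alternative it was 0. Members without overlap went from 4 to 2 and 1 (median-of-ratios scaling, quantile normalization; 4.62% and 3.82% of all genes) for TAC above sham, from 6 to 3 and 1 (24.2% and 19.2%) for WT-TAC above WT-Sham, and from 3 to 0 and 0 (26% and 20.5%) for Fat1-TAC below WT-TAC. These counts were recomputed as an addition made after seeing the data. Without WT-TAC1 they stayed at 4, 6 and 3, against 9.76%, 64.1% and 66.9% of all genes. Leaving out a library can only keep or raise such a count. Over all genes tested, deviations from the group means had r from -0.14 to 0.02 between libraries with the same replicate number. With 2 libraries per group this does not exclude a pairing of samples. The fit with the replicate number as a block called 0 members, as did the main fit. With 2 libraries per group, and in Usp18 as few as 45 fragments, small differences were not detectable.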
